A study of Mus musculus with 2 samples.

Results

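Galectins and S100 proteins are represented here by 9 genes, 2 galectins (Lgals1 and Lgals3) and 7 S100 genes (S100a1, S100a4, S100a6, S100a10, S100a11, S100a16 and S100b), found by symbol among the 28692 genes of the deposited matrix. Their choice rested on levels measured in these same cells, so their differences between cell types are given as descriptions, with no test. Single-cell RNA sequencing was done on neural stem cells of mouse strain C57/Bl6J, grown from the subventricular zone, the neurogenic wall of the lateral ventricle. Both labelled groups came from postnatal cells that were expanded, deprived of EGF and FGF and taken 3 days later. One library, the control, had DMSO as vehicle, and 1 library was treated with 1 µM of 20HC, an oxysterol. The cells of the pooled matrix carry a barcode number, 1 or 2, that nothing in the labels or files ties to a library, so no comparison of control with 20HC was made and the matrix was treated as 1 sample. A protocol field of the control library also mentions 20HC; its group was taken from its title.

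Galectins are small lectins that bind galactose-containing sugars on cell surface and matrix glycoproteins and also act inside the cell. Galectin-1 (Lgals1) is abundant in mesenchymal cells and has been studied in neural stem cells, and galectin-3 (Lgals3) is a well-known product of macrophages and activated microglia. S100 proteins are small calcium sensors with EF-hand domains that pair up and bind target proteins such as annexins and myosin. S100b is widely used as a marker of astrocytes, and several S100a genes lie side by side on 1 chromosome.

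Of 14685 barcodes, 13028 cells were kept, with 38337071 unique molecular identifiers (UMIs, counts of single transcripts captured near their 3′ ends). Set 1 held 9630 of the kept cells (median 2822 UMIs) and set 2 held 3398 (median 2888.5). The sets shared 34 barcode sequences among kept cells. Cells were grouped into 12 clusters from genes other than galectins and S100 genes, and 10 clusters were named from marker genes. Astrocyte-like cells numbered 6924 (clusters 1 and 2), cycling-like 2111, neuroblast-like 1479, oligodendrocyte precursor-like (OPC-like) 681, progenitor-like 621, fibroblast-like 221, ependymal-like 79 and microglia-like 35. The name of cluster 1 rests on a narrow margin. Its 10 leading genes held 1 astrocyte marker (Agt), beside C1ql1 of the oligodendrocyte precursor list and Stmn2 of the neuroblast list. The fibroblast-like cluster had Acta2 and Vtn, markers of pericytes or smooth muscle, among its leading genes, and all 9 markers of that list were seen in it. The neuroblast-like cluster was led by Tubb3 and Mfng together with the replication genes Dtl and Hells. Cluster 8 (517 cells, median 1085 UMIs, 1.04% mitochondrial UMIs) and cluster 9 (360 cells, led by Car9 and Adm, genes of low oxygen) stayed unnamed. Levels are CPM, the UMIs of a gene in a class divided by that class's total and scaled to 1000000, and the ranges given with them are exact Poisson 95% intervals. Intervals cover counting error only, since there are no replicates.

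To be called higher or lower in a class, a gene had to differ by at least 1.5-fold from all other kept cells, in the same direction in each barcode set, with the level elsewhere outside the class's interval. Log2 ratios are of CPM + 5. Among the 9 genes, 7 were higher in astrocyte-like cells (Lgals3, S100a1, S100a4, S100a6, S100a11, S100a16 and S100b) and 1, Lgals1, was lower, against 36.1% and 19.2% of the 13037 genes with at least 30 UMIs. In cycling-like cells 8 of 9 were lower (42.7% of genes), in neuroblast-like cells 7 (34.5%) and in OPC-like cells 6 (18.5%). The median log2 ratio of the 9 genes was 0.80 in astrocyte-like, -2.19 in cycling-like, -1.70 in neuroblast-like and -1.29 in OPC-like cells; the medians of all genes counted were 0.15, -0.24, -0.20 and -0.09. Astrocyte-like cells held 55.3% of all UMIs and so dominate the comparison for every other class. When they were left out of it, 9 of 9 genes were lower in cycling-like cells (28.9% of genes). In neuroblast-like cells 7 were lower (19.3%), now with Lgals1 (log2 ratio -0.70) and without S100a16 (-0.16). In OPC-like cells 4 were lower (10.4%): Lgals3, S100a4, S100a6 and S100a11.

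**Figure D1:**
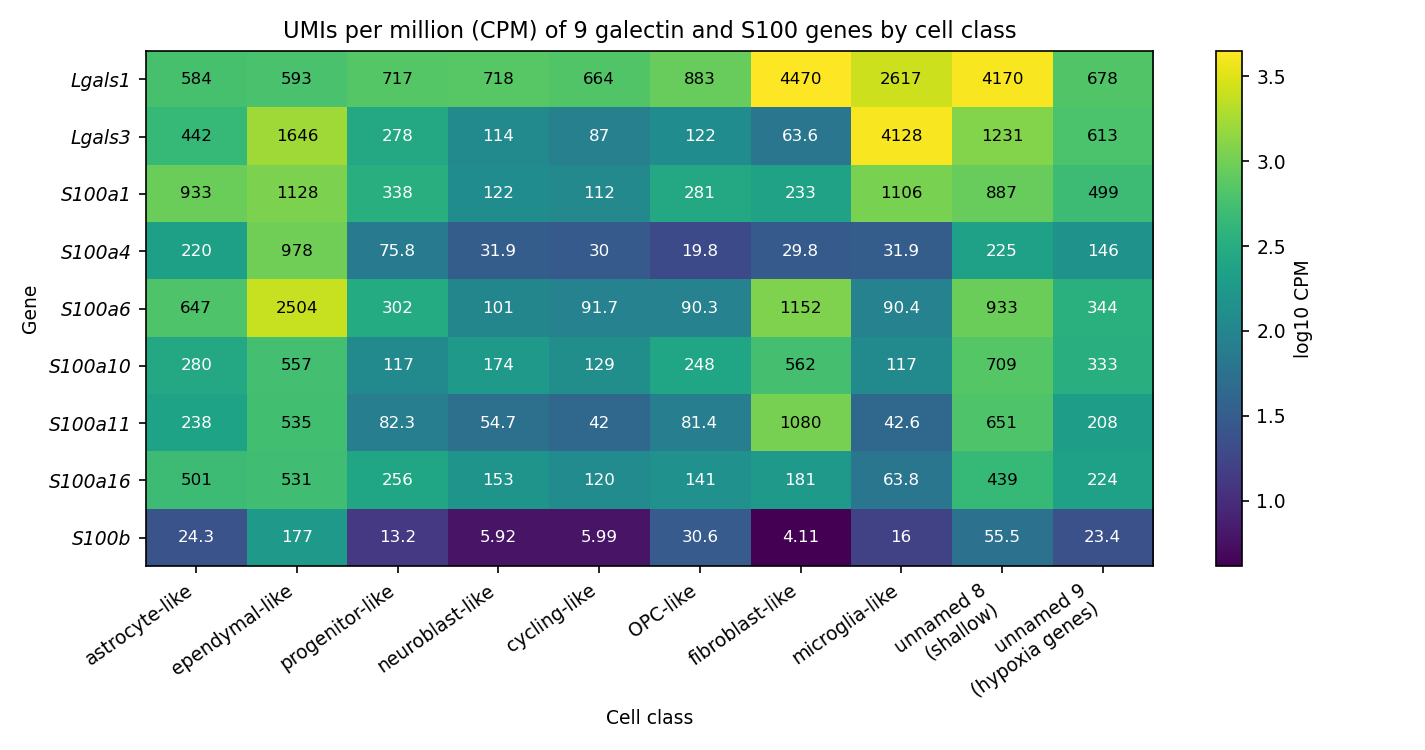
Level of each gene (rows) in each cell class (columns), in CPM on a log10 colour scale, with the CPM printed in each cell of the map. S100a4 and S100a6 are brightest in ependymal-like cells (978 and 2504 CPM), Lgals1 in fibroblast-like cells (4470 CPM) and Lgals3 in microglia-like cells (4128 CPM).

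Lgals1 (ENSMUSG00000068220; GRCm38 chromosome 15, 78926725 to 78930465, plus strand) lay between 584 and 883 CPM in the 6 neural classes and was higher in fibroblast-like and microglia-like cells. Its level was 584 CPM in astrocyte-like (574 to 595), 593 in ependymal-like (497 to 702), 664 in cycling-like (645 to 683), 717 in progenitor-like (675 to 761) and 718 in neuroblast-like cells (690 to 746). OPC-like cells stood above these, at 883 CPM (844 to 923). The ependymal-like interval overlapped those of the astrocyte-like, cycling-like, progenitor-like and neuroblast-like classes. Fibroblast-like cells had 4470 CPM (4338 to 4605), 6.30 times the level of all other cells, and microglia-like cells 2617 CPM (2391 to 2859). After each cell was thinned to 1000 UMIs to equalise depth, 96.3% of fibroblast-like cells still had a Lgals1 UMI, against 37.2% of astrocyte-like and 45.7% of neuroblast-like cells. Without thinning these shares were 99.1%, 66.6% and 67.2%. Lgals1 was lower in astrocyte-like than in all other cells (log2 ratio -0.88, and -0.71 without the shallow cluster 8 in the comparison). With no cell filter, where the class held 23.3% of barcodes, the ratio was -0.49 and was not called.

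Lgals3 (ENSMUSG00000050335; chromosome 14, 47367751 to 47386160, plus strand) separated the classes far more, over a 64.9-fold range between clusters. Microglia-like cells had 4128 CPM (3842 to 4429), and 97.1% of them had a UMI after thinning. Ependymal-like cells followed with 1646 CPM (1483 to 1822), cluster 8 with 1231 (1147 to 1319), cluster 9 with 613 (565 to 664), astrocyte-like cells with 442 (433 to 451) and progenitor-like cells with 278 (252 to 306). Levels were low in OPC-like (122), neuroblast-like (114), cycling-like (87.0) and fibroblast-like cells (63.6 CPM). The astrocyte-like level was the same in both sets, 442 CPM in each. The 11 microglia markers were summed in the other classes: 12.1 CPM in astrocyte-like cells, with 10 of 11 markers seen and Csf1r at 0, and 39.8 CPM in ependymal-like cells, with 4 of 11 seen and C1qa, C1qb, C1qc, Csf1r, Cx3cr1, Fcer1g and Ctss at 0. The sum was 11.6 CPM in neuroblast-like cells, where 8 of 11 were seen. The part of microglial RNA in the Lgals3 levels of other classes was not tested. The astrocyte-like call for Lgals3 was lost at clustering resolution 1.0 (log2 ratio 0.41) and with no cell filter (0.42). The class then held 39.3% of cells and 23.3% of barcodes, fewer than in the main clustering.

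S100a1 (ENSMUSG00000044080; chromosome 3, 90511034 to 90514392, minus strand), best known as a calcium sensor of heart muscle, had its highest share of UMIs in astrocyte-like cells. That class had 933 CPM (920 to 946) against 239 in all other cells, and 82.9% of the gene's UMIs for 53.1% of the cells. Ependymal-like cells (1128 CPM, 994 to 1275) and microglia-like cells (1106, 961 to 1267) had overlapping intervals, and both lay above astrocyte-like cells. Progenitor-like (338), OPC-like (281) and fibroblast-like cells (233) were intermediate, and neuroblast-like (122) and cycling-like cells (112) lowest. After thinning, 56.1% of astrocyte-like cells had a UMI (84.3% before), against 25.3% of OPC-like and 10.9% of neuroblast-like cells (52.4% and 24.4% before). In OPC-like cells S100a1 was lower than in all other cells, but not when astrocyte-like cells were left out (log2 ratio 0.27). The microglia-like excess shrank to a log2 ratio of 0.41 without the 5 cells richest in the gene.

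**Figure D2:**
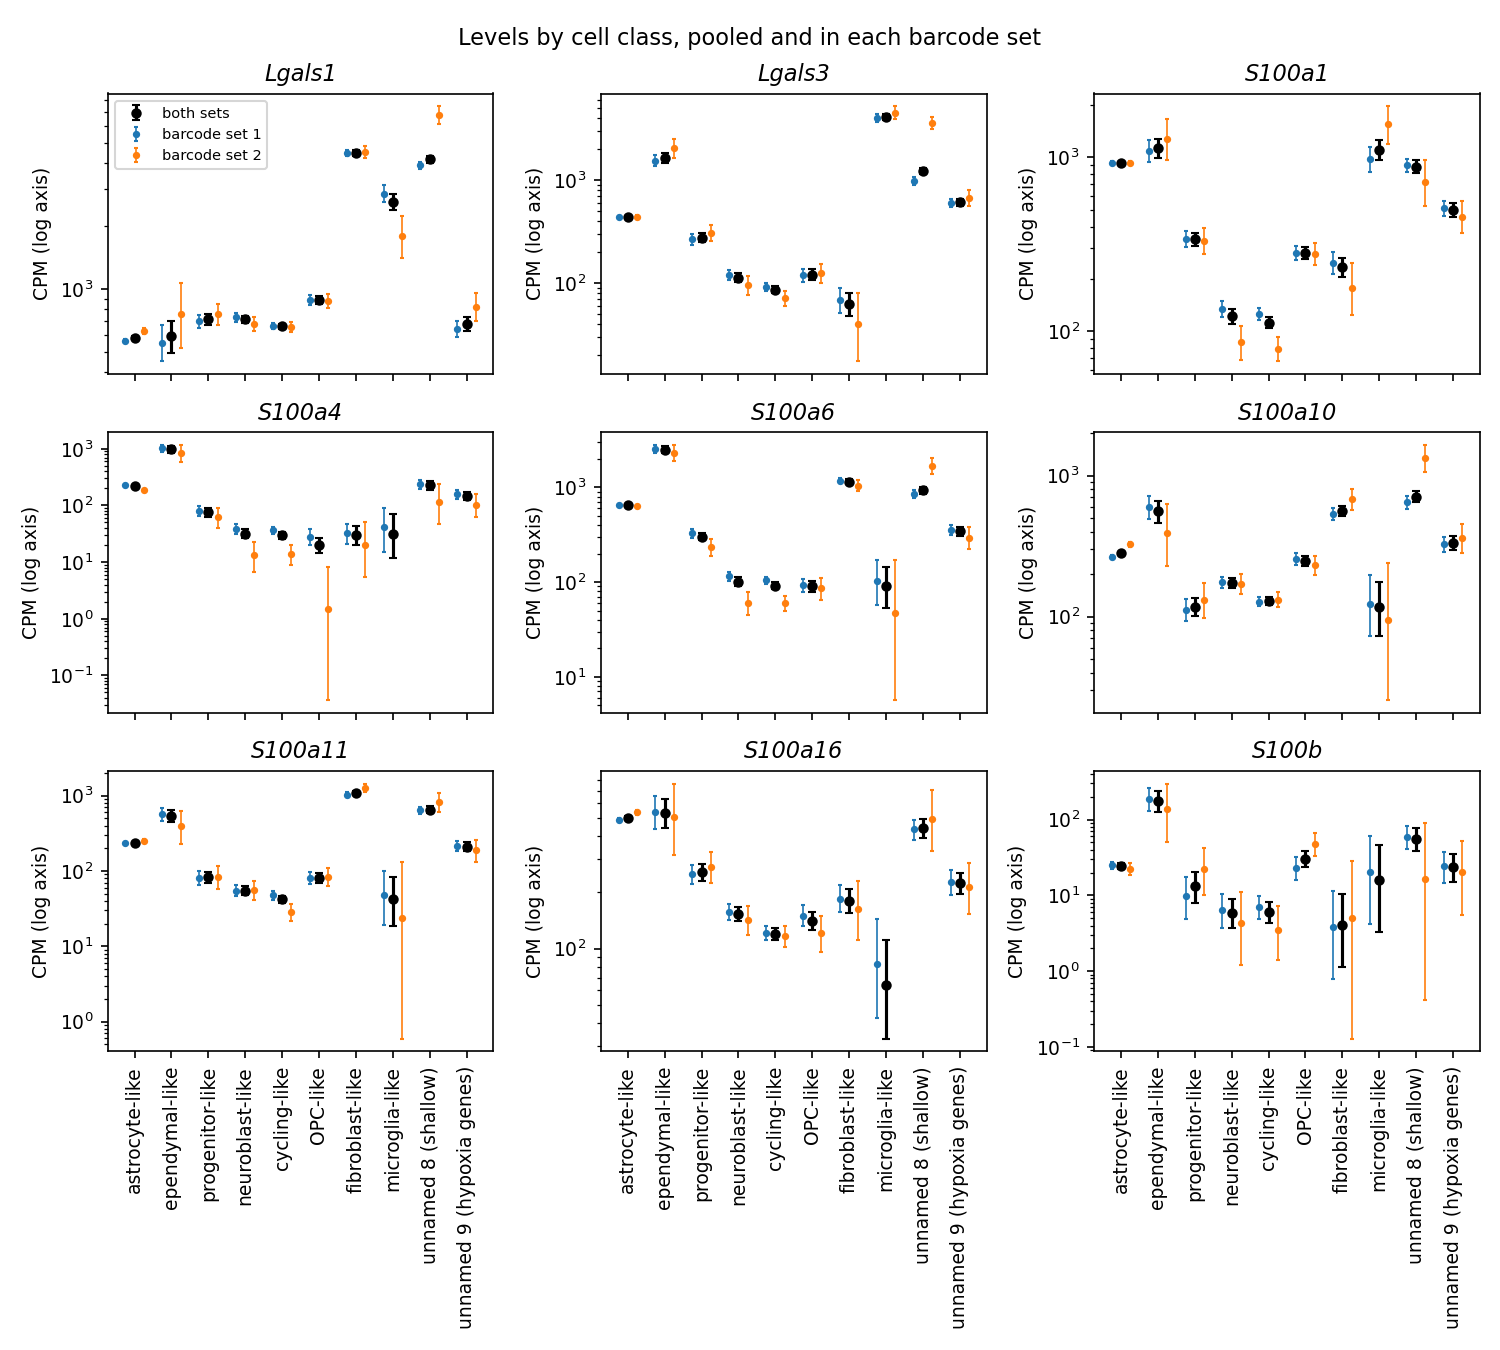
CPM (log axis) of each gene in each class, with exact Poisson 95% intervals: black, both barcode sets; blue, set 1; orange, set 2. A set with no UMI of a gene in a class (S100a4, S100a16 and S100b in microglia-like cells of set 2) has no orange point; in OPC-like cells S100a4 is at 27.9 CPM in set 1 and 1.46 in set 2.

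S100a4 (ENSMUSG00000001020; chromosome 3, 90603771 to 90606045, plus strand) binds non-muscle myosin and is also called fibroblast-specific protein. S100a6 (ENSMUSG00000001025; chromosome 3, 90612882 to 90624181, plus strand), calcyclin, is its second neighbour downstream, with S100a5 between them. Across the 12 clusters the log2 levels of S100a4 and S100a6 went together (Pearson r = 0.81, 0.80 without cluster 8), as a description over clusters that share libraries and differ in depth. Other pairs were about as alike: r was 0.92 for S100a6 with S100a11, 0.87 for S100a4 with S100a16 and 0.73 for S100a4 with S100b. The 250 bases before each RefSeq start are printed to show the sequence before the starts of this pair, with that of S100b, on another chromosome, beside them (RefSeq, GRCm38.p6, plus strand, 5′ to 3′). Capitals mark matches, on either strand, to 4 motifs: the TATA box (TATAAA), the CCAAT box (spelled by its name), the GC box (GGGCGG) and the AP-1 motif (TGANTCA).
S100a4, chr3:90603520-90603769: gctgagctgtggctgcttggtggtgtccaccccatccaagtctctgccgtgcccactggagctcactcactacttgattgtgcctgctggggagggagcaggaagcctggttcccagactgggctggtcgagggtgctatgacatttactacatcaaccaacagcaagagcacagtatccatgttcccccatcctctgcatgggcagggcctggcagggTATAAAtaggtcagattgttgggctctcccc
S100a6, chr3:90612644-90612893: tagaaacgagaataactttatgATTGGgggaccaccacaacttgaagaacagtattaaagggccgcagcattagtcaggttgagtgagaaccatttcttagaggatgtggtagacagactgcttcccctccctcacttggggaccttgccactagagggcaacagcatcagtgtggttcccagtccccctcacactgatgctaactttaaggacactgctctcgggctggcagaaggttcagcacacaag
S100b, chr10:76253586-76253835: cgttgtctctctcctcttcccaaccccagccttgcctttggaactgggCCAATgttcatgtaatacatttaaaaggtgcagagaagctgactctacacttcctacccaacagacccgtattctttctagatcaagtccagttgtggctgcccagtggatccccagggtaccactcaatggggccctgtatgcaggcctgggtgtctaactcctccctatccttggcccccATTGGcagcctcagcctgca
The S100a4 window alone of the members' windows held TATAAA, which 12.4% of 32851 such windows held. CCAAT was found in the windows of S100a6, S100b and Lgals3 (33.8% of all windows), GGGCGG in those of Lgals3, S100a11 and S100a16 (32.7%) and TGANTCA in those of S100a11 and S100a16 (6.75%). Windows were matched for 7 of the 9 members. The Lgals3 window and the S100a16 window with motif matches lie wholly inside their GENCODE genes. Another S100a16 window, just before that gene, held no match. The last bases of the S100a1, S100a6 and S100a11 windows also lie inside their genes.

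Both genes were highest in ependymal-like cells. S100a4 had 978 CPM there (853 to 1115), against 220 in astrocyte-like cells (213 to 226), 75.8 in progenitor-like cells (62.5 to 90.9) and between 19.8 and 31.9 CPM in OPC-like, fibroblast-like, cycling-like, neuroblast-like and microglia-like cells. The intervals of fibroblast-like (19.9 to 42.8), cycling-like (26.0 to 34.4) and neuroblast-like cells (26.3 to 38.3) overlapped, so S100a4 did not stand out in fibroblast-like cells, where 0.459% had a UMI after thinning. Summed fibroblast markers were at 9886 CPM in that class and summed pericyte or smooth muscle markers at 6600 CPM. S100a6 had 2504 CPM in ependymal-like cells (2302 to 2719), then 1152 in fibroblast-like (1085 to 1221), 647 in astrocyte-like (637 to 658) and 302 in progenitor-like cells (275 to 331). It lay between 90.3 and 101 CPM in OPC-like, microglia-like, cycling-like and neuroblast-like cells. The pair thus parted in fibroblast-like cells, where S100a6 was higher and S100a4 lower than in all other cells.

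After thinning, S100a6 UMIs were seen in 81.1% of ependymal-like, 61.5% of fibroblast-like and 38.1% of astrocyte-like cells, against 8.93% of neuroblast-like and 7.73% of OPC-like cells. For S100a4 the shares were 51.4% of ependymal-like, 16.7% of astrocyte-like, 2.91% of neuroblast-like and 1.93% of OPC-like cells. Unthinned, S100a6 was seen in 17.9% of neuroblast-like cells (median 2374 UMIs) and 21.3% of OPC-like cells (median 3097), and S100a4 in 6.83% and 6.31%. The OPC-like shares after thinning were no higher than the neuroblast-like ones, and no expression is read from them; the level given by free RNA was not measured. Among thinned astrocyte-like cells, S100a6 was seen in 45.6% of the 1135 cells with an S100a4 UMI and in 36.6% of the 5653 without. That gap was not particular to the pair. It was about as wide for S100a16 (43.1% and 34.7%) and S100a1 (62.7% and 54.7%), while Lgals1 was level (37.4% and 37.2%). In progenitor-like cells the S100a6 level rested on few cells: 5 of 621 held 29.4% of its UMIs, 1 cell had 52, and without those 5 the level was 216 CPM.

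**Figure D3:**
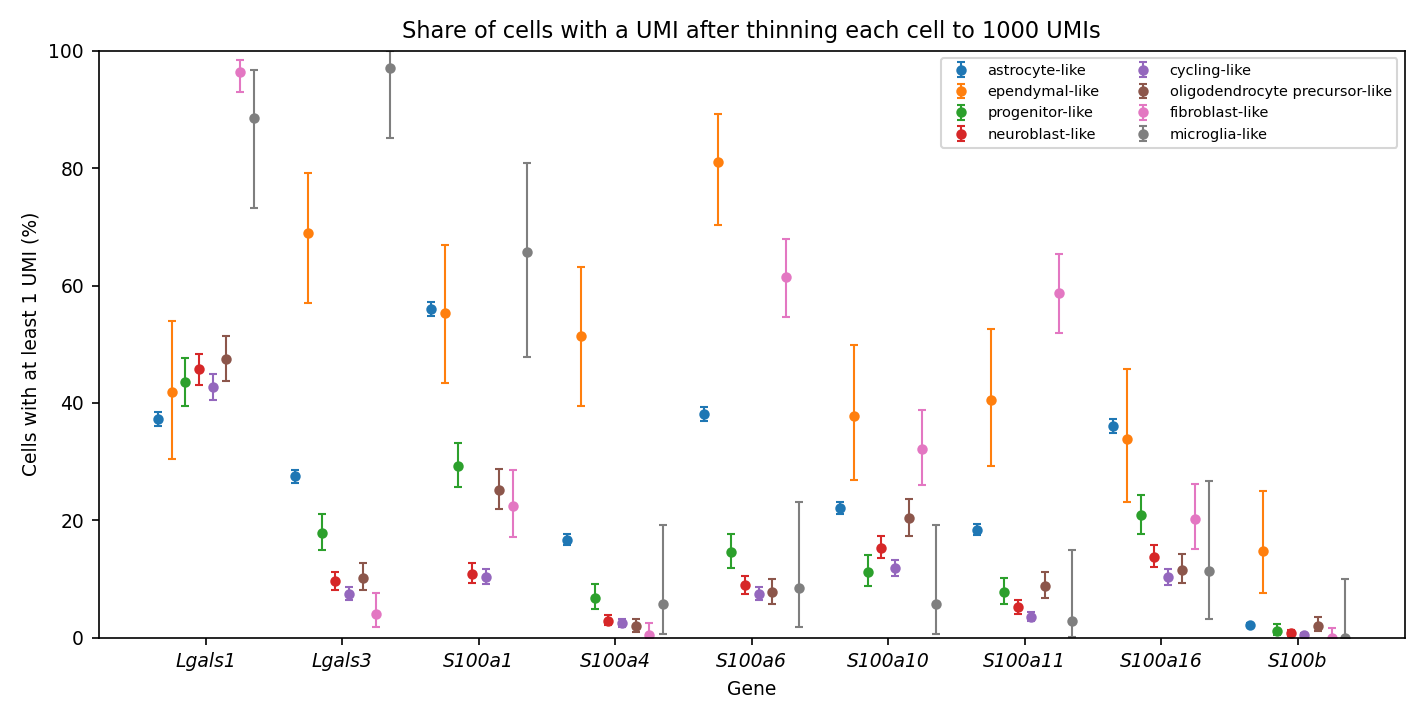
Percentage of cells of each named class with at least 1 UMI of each gene (vertical axis) after thinning each cell to 1000 UMIs; bars are exact Clopper-Pearson 95% intervals. Lgals1 lies between 37.2% and 47.5% in all 6 neural classes, while S100a6 ranges from 7.46% in cycling-like to 81.1% in ependymal-like cells.

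S100a10 (ENSMUSG00000041959; chromosome 3, 93555080 to 93564643) and S100a11 (ENSMUSG00000027907; chromosome 3, 93520488 to 93526287), both on the plus strand, are neighbours whose products bind annexins: S100a10 pairs with annexin A2 and S100a11 with annexin A1. S100a11 was highest in fibroblast-like cells, at 1080 CPM (1016 to 1147), 6.13 times the level of other cells. S100a10 was at 562 CPM in fibroblast-like cells (516 to 612) and at 557 in ependymal-like cells (464 to 664). In the ependymal-like class 5 of 79 cells held 46.0% of its UMIs. Without the 5 richest cells of each class the S100a10 level was 339 CPM in ependymal-like cells, where the call was lost (log2 ratio 0.43), and 514 CPM in fibroblast-like cells. In astrocyte-like cells S100a11 stood at 238 CPM and S100a10 at 280, and in cycling-like cells at 42.0 and 129. OPC-like cells differed between the neighbours: S100a10 was close to other cells (248 against 252 CPM), while S100a11 was lower (81.4 against 206). Over the 12 clusters r between the pair was 0.94. Among thinned astrocyte-like cells S100a11 was seen in 23.3% of cells with and 17.1% of cells without an S100a10 UMI. Lgals1 (41.4% and 36.0%) and Lgals3 (31.4% and 26.4%), on other chromosomes, had similar gaps, and S100a1 a smaller one (57.4% and 55.7%). The astrocyte-like call for S100a11 was lost in set 1 alone (log2 ratio 0.51), with thinned cells (0.56), without mitochondrial and ribosomal genes in the total (0.53) and with no cell filter (-0.14).

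S100a16 (ENSMUSG00000074457; chromosome 3, 90537254 to 90543151, plus strand) had its highest levels in ependymal-like (531 CPM, 440 to 635) and astrocyte-like cells (501, 492 to 511), which overlapped. Progenitor-like cells had 256 CPM (231 to 282), and fibroblast-like (181), neuroblast-like (153), OPC-like (141), cycling-like (120) and microglia-like cells (63.8) less. Its ependymal-like ratio was just past the limit, at 1.51, and the call was lost in 8 of the 16 alternatives. Without astrocyte-like comparison cells S100a16 was no longer lower in fibroblast-like (log2 ratio 0.11), OPC-like (-0.27) or neuroblast-like cells (-0.16). In progenitor-like cells it was then higher (0.67), with no share of all genes given to set beside that call.

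S100b (ENSMUSG00000033208; chromosome 10, 76253853 to 76261159, plus strand), the astrocyte marker, was the least captured member, with 771 UMIs in 614 kept cells, and it overlaps Dip2a on the other strand. Ependymal-like cells had 177 CPM (126 to 241) and 26.6% of them a UMI. OPC-like cells had 30.6 CPM (23.7 to 38.7) and astrocyte-like cells 24.3 (22.3 to 26.5), and these intervals overlapped. Progenitor-like (13.2), cycling-like (5.99), neuroblast-like (5.92) and fibroblast-like cells (4.11 CPM) were lower. The OPC-like call, 1 of 9 members higher against 7.31% of genes, was lost in set 1 alone (log2 ratio 0.12), with thinned cells (0.21), at resolution 0.3 (0.19), with no cell filter (0.32) and without the 5 cells richest in the gene (0.08). Of astrocyte-like cells 5.96% had a UMI (2.20% after thinning), against 1.42% of neuroblast-like (0.762%) and 5.71% of microglia-like cells (0 of 35 after thinning).

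Within the astrocyte-like class S100b, S100a10 and S100a11 were higher in cluster 1, while S100a4, S100a6, S100a16, Lgals1 and Lgals3 were higher in cluster 2. S100b was at 34.4 CPM (31.3 to 37.8) in cluster 1, led by Pcp4, Agt and Gria1, and at 8.83 CPM (6.94 to 11.1) in cluster 2, led by Cldn10, Gfap and Aldoc. That was a 3.90-fold difference, 4.13-fold in set 1 and 3.31-fold in set 2. Against all other kept cells S100b was higher in cluster 1 (12.9 CPM elsewhere) but lower in cluster 2 (23.3 CPM elsewhere). The astrocyte-like call for S100b thus held for cluster 1, the narrowly named one, and not for cluster 2. S100a4 went the other way, with 178 CPM in cluster 1 and 283 in cluster 2, 1.59-fold higher in cluster 2. S100a6 was at 567 and 771 CPM, S100a16 at 456 and 571, Lgals1 at 541 and 650 and Lgals3 at 410 and 490, each higher in cluster 2 in both sets. S100a10 (299 and 252 CPM) and S100a11 (259 and 206) were higher in cluster 1 in both sets, 1.19-fold and 1.26-fold. S100a1 was level (926 and 943 CPM). Median depth was similar, 2959.5 and 3020.5 UMIs, as was the median mitochondrial share (3.70% and 3.89%). With no cell filter the astrocyte-like class shrank to 23.3% of 14685 barcodes and 5810 stayed unnamed, so the class name covered a different set of cells. S100b was lower in that set (log2 ratio -0.91). With the mean over cells S100b was not called in the astrocyte-like class of the main clustering (0.36).

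**Figure D4:**
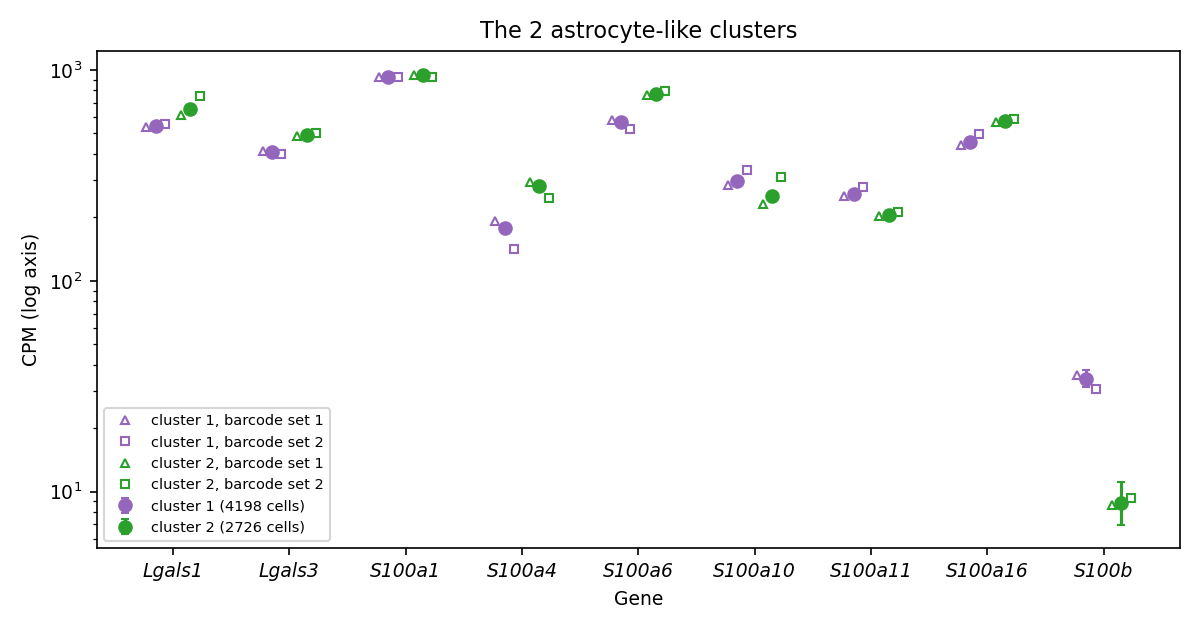
CPM (log axis) of each gene in astrocyte-like clusters 1 (purple) and 2 (green); filled points are both sets with exact Poisson 95% intervals, triangles set 1 and squares set 2. S100b is at 34.4 CPM in cluster 1 and 8.83 in cluster 2, while S100a4 and S100a6 lie higher in cluster 2 in both sets.

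Cells of the smaller classes each had their own set of members. Ependymal-like cells, with motile cilia, had 8 of 9 members higher (11.6% of genes), all but Lgals1. At clustering resolution 1.0 the count was 5, with S100a1 (log2 ratio 0.36), S100a16 (0.04) and S100b (0.88) not called. Fibroblast-like cells had 4 higher (Lgals1, S100a6, S100a10 and S100a11, against 11.7% of genes) and the other 5 lower (19.1%). Microglia-like cells had 3 higher (Lgals1, Lgals3 and S100a1, against 5.23% of genes) and 5 lower (S100a4, S100a6, S100a10, S100a11 and S100a16, against 15.3%). Progenitor-like cells had 5 members lower (17% of genes). Against the remaining cells once the astrocyte-like ones were set aside, 3 were lower (11.8% of genes): S100a10, S100a11 and Lgals1 (log2 ratio -0.63), which was not among those 5. S100a16 was higher (0.67), while S100a1 (0.55), S100a4 (0.36) and S100a6 (0.30) lay above those cells, not called. The share of all genes higher in that comparison is not given, so nothing is read from the S100a16 call. Ependymal-like levels rest on 79 cells, and the 5 cells richest in a member held between 25.9% (S100a1) and 46.0% (S100a10) of its UMIs. Without them S100b was at 112 CPM, Lgals3 at 1134 and S100a6 at 2059, and 6 members were higher.

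Cluster 8, with few UMIs per cell and no class, had 5 members higher (Lgals1, Lgals3, S100a6, S100a10 and S100a11), against 2.49% of genes. Lgals1 was at 4170 CPM there (4014 to 4330), just under the fibroblast-like interval. Without thinning 66.0% of cells in cluster 8 had a UMI, against 99.1% of the deeper fibroblast-like cells (median 4211 UMIs). Thinning left out cells under 1000 UMIs and so kept 307 of the 517. The shares were then 73.6% and 96.3%. The 307 cells were uneven: the variance of their Lgals1 UMIs was 6.94 times the mean, against 1.41 in astrocyte-like and 1.86 in fibroblast-like cells. Summed fibroblast markers were at 70.9 CPM in cluster 8, with 8 of 9 seen and Postn at 0, and at 9886 CPM in fibroblast-like cells. The sets differed in it, with 478 cells from set 1 and 39 from set 2. Lgals3 was at 987 CPM in set 1 and 3575 in set 2, and Lgals1 at 3898 and 6789. For 4 members the sets' intervals did not overlap, against 1.06% of genes. A single cell of set 2 held 115 Lgals3 UMIs, and without the 5 cells richest in it Lgals3 was at 938 CPM.

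The barcode sets, whose conditions are not known, were set side by side in the larger classes. In astrocyte-like cells 4 members had intervals apart (9.17% of genes): Lgals1 (567 CPM in set 1, 632 in set 2), S100a4 (232 and 184), S100a10 (264 and 325) and S100a16 (489 and 535). In cycling-like cells S100a1, S100a4, S100a6 and S100a11 were apart (5.09% of genes), and in neuroblast-like cells S100a1, S100a4 and S100a6 (3.65%), each higher in set 1. S100a4 was at 36.6 CPM in set 1 and 13.6 in set 2 in cycling-like cells, and at 38.4 and 13.1 in neuroblast-like cells. S100a6 was at 105 and 59.6 CPM in cycling-like and at 115 and 60.0 in neuroblast-like cells. In OPC-like cells 2 members were apart (2.59% of genes): S100a4, at 27.9 CPM in set 1 (20.2 to 37.6) and 1.46 in set 2 (1 UMI, 0.0369 to 8.12), and S100b, at 22.7 and 48.1 CPM. In astrocyte-like cells the S100a6 intervals of the sets overlapped (653 and 633 CPM). With 1 library per condition these differences have no replicate check.

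Other genes of both families were read from a list of the gene families. Of 8 other galectins in the files 6 had at least 30 UMIs, and 5 of them were higher and 1 lower in astrocyte-like cells, against 36.1% and 19.2% of all genes. Lgals8 was at 31.3 CPM there and 8.33 in cycling-like cells, Lgalsl at 22.8 and 5.70, and Lgals2 at 8.59 and 0.731. Lgals9, a galectin of immune and stromal cells, was the exception: 106 CPM in fibroblast-like and 101 in microglia-like cells, against 0.283 CPM in astrocyte-like cells. Of 10 other S100 genes 4 had at least 30 UMIs, and 4 of 4 were higher in astrocyte-like (36.1% of all genes) and lower in cycling-like cells (42.7%). S100a13 was at 531 CPM in astrocyte-like and 77.2 in cycling-like cells, and S100a3 at 40.5 and 6.29; S100g and S100a7a were barely captured, at 1.37 and 1.27 CPM in astrocyte-like cells.

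S100a13 lies head to head with S100a1 on the opposite strand, with 42 bases between the GENCODE genes, and over the 12 clusters their log2 levels had r = 0.96. That likeness was not particular to the pair: r with S100a1 was 0.98 for Necap2, 0.97 for Ndufa1 and 0.88 for Lgals3, on chromosome 14. The stretch between the annotated genes is printed as the only sequence that separates them (RefSeq window of S100a1, GRCm38.p6, plus strand, no motif match marked).
chr3:90514393-90514434: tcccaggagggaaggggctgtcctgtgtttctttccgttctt
S100a1 and S100a13 were at 933 and 531 CPM in astrocyte-like and 281 and 215 in OPC-like cells. They were at 233 and 152 in fibroblast-like and 112 and 77.2 CPM in cycling-like cells, falling in the same order across these classes. In ependymal-like and microglia-like cells S100a1 was called higher (1128 and 1106 CPM) and S100a13 was not. S100a3, whose gene ends upstream of S100a4, had r = 0.95 with S100a4 and 0.84 with S100a6, the only genes it was set against. Its level was 111 CPM in ependymal-like and 8.21 in fibroblast-like cells. A gene model, Gm42674, overlaps S100a3 and S100a4 on their strand, and UMIs there could be split between them. S100 genes of chromosome 3 numbered 14 in the files, 6 of them members, between 90511034 and 93564643.

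Of 18 known binding partners 10 were higher in astrocyte-like cells and 3 lower; 13 were lower and 2 higher in cycling-like cells. Of all genes 36.1% were higher and 19.2% lower in astrocyte-like cells, and 42.7% were lower in cycling-like cells. The share of all genes higher in cycling-like cells is not given, so nothing is read from the 2 higher partners. Anxa5, a calcium-dependent membrane binder, was at 316 CPM in astrocyte-like, 805 in ependymal-like and 1129 in fibroblast-like cells, and 62.7 in cycling-like cells. Anxa2, partner of S100a10, was at 207, 615, 771 and 31.6 CPM in the same order (r = 0.66 with S100a10 over the clusters). Anxa1, partner of S100a11 and named after its values were seen, was at 17.2 CPM in astrocyte-like but 403 in ependymal-like and 492 in fibroblast-like cells (r = 0.85 with S100a11). Cacybp, the calcyclin-binding protein that binds S100a6, was higher in cycling-like (300 CPM) and neuroblast-like cells (309) and lower in astrocyte-like cells (164). Sugt1, which also binds S100 proteins, was at 139 CPM in astrocyte-like and 187 in cycling-like cells, called in neither, and was higher in ependymal-like cells (239 CPM). Of the other partners set against a member over the clusters, Lgals3bp had r = 0.61 with Lgals3 and Itgb1 0.33 with Lgals1. Cacybp had r = -0.50 with S100a6 and Myh9 -0.10 with S100a4, so partners did not all go with their members.

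Genes whose log2 levels across the 12 clusters were most like each member are given with Pearson r, as a description over clusters that share both libraries. S100a4 was most like Hspa2 (0.98), Meig1 (0.97), Slc44a3, Ptgr2 and Nme5, each with its highest level in the ependymal-like cluster. S100a6 was most like Glipr2 (0.96), Ifitm3 (0.95), Gbp2, Mtpn and Dkk3. S100a11 was most like Timp1 (0.99), an inhibitor of matrix proteases, then Akr1b8, Snap47, Laptm4a and Sdc2. S100a10 shared Timp1 (0.91) and Akr1b8 (0.90), beside Mrpl33, Igfbp2 and Cope. Lgals3 was most like Mgst1 and Sdcbp (0.94 each), Gpx3, Mcee and the lysosomal protease gene Lgmn. Lgals1 was most like Capzb (0.93), an actin-capping subunit, then Serf2, Gm10076, Copz1 and Pold4. S100a1 was most like Necap2, Gng5 and 4931406C07Rik (0.98 each), Pon2 and Ndufa1, S100a16 most like C920021L13Rik and Cend1 (0.97 each), Grk4, Cnn3 and 2310015A10Rik, and S100b most like Pyroxd1 (0.90), Chmp2b, Ropn1l, Vps53 and Mro.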

How the data were processed

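Libraries came from the Chromium 3′ kit (version 1) of 10x Genomics, per the labels' protocols. The submitters' processing notes name Cell Ranger 2.1.1 and the mm10 build; filtering and depth equalisation before deposit are not given in the sources used here. Whole UMI counts of both libraries in 1 pooled matrix were what the authors deposited.

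Barcodes under 500 genes (635) or over 10% mitochondrial UMIs (912) were left out, 1407 in all, then Scrublet (scanpy 1.11.5) marked doublets in each barcode set: 239 of 9869 (2.42%) and 11 of 3409 (0.323%), under the 7.90% and 2.73% expected at 0.8% per 1000 cells, so doublets remain possible. Counts were scaled to 10000 per cell and logged; 2000 variable genes without galectin or S100 genes, 30 components, 15 neighbours and Leiden resolution 0.5 (leidenalg 0.10.2) gave the clusters. A cluster was named from 14 marker lists when at least 3 markers were raised 2-fold. In addition, markers of no single other class could outnumber its own among its 10 leading genes, read without galectin and S100 genes. These naming conditions follow earlier work on these data. Ratios used CPM + 5. Shares were also taken after thinning to 1000 UMIs, which left out cells with fewer. Likeness ranked genes with at least 500 UMIs, 5 named per member; of other lists the 4 genes with most UMIs were named, and other names were chosen after values were seen. Members and lists were chosen with earlier results of these data known. The counting rule carries no error rate here, since no check on data of known outcome is given. Positions are from GENCODE M21 (GRCm38), which held 28416 of 28692 gene IDs (99.0%), promoters from RefSeq GRCm38.p6. No p-values were computed.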

Additional observations from a re-analysis of the deposited data

Results flagged for a closer look

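Barcodes outside every comparison also held the members. Lgals1 and S100a4 are given, chosen after their values were seen. In the 635 barcodes with too few genes (387 of set 1 and 248 of set 2, median 876 UMIs), Lgals1 was at 4690 CPM and S100a4 at 196 CPM, against 805 and 148 in kept cells. In the 912 barcodes rich in mitochondrial UMIs (median 1260 UMIs), Lgals1 was at 564 CPM and S100a4 at 226 CPM. These values are given because the barcodes entered no comparison; no background level was measured for them.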

How the results depend on the processing

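No paired analysis was possible because no test was made and cells cannot be assigned to their library. The alternatives covered clustering, cell filter, doublets, totals, thinning, comparison cells and each barcode set; leaving out the shallow cluster 8 as comparison, the barcodes found in both sets or the 5 cells richest in a gene was chosen after the data were seen. Of the values for the 6 main counts of members, 81 stayed within 1.5-fold and 2 moved: 5 members, not 8, were higher in ependymal-like cells at resolution 1.0, and 4, not 7, in astrocyte-like cells with no cell filter. Class names covered fewer cells in these runs: 3258 cells stayed unnamed at resolution 1.0 and 5810 with no cell filter. In the main clustering only clusters 8 (517 cells) and 9 (360 cells) were unnamed. Of single values 2398 stayed within counting error, 844 moved and 7 changed sign. Without astrocyte-like comparison cells the sign changed for S100a16 in fibroblast-like cells (0.11), S100a1 in OPC-like cells (0.27) and S100a1, S100a4 and S100a6 in progenitor-like cells (log2 ratios 0.55, 0.36 and 0.30), where the comparison holds fewer cells. With no cell filter it changed for S100a11 (-0.14) and S100b (-0.91) in astrocyte-like cells; the cause was not tested. No cluster was named progenitor-like at resolution 0.3 or with no cell filter. Depth limits S100b most.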
